A study of Homo sapiens with 6 samples.

Results

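The 10 genes described here are GDF15, BTG2, GADD45A, PHLDA3, SESN1, TP53INP1, ZMAT3, FDXR, TP53I3 and RRM2B, known transcriptional targets of p53 that act outside the core of apoptosis and DNA repair. They were taken as a fixed set of gene symbols, drawn up with earlier results of these data known, and all 10 were found among the 22925 genes of the deposited table. The RNA came from HT-1080, an established human fibrosarcoma line. One group of 3 libraries came from cells given PhenDC3 at 20 μM, dissolved in 1% DMSO, for 48 h, and the other group of 3 from cells given 1% DMSO and no ligand for as long. The ligand PhenDC3 stabilizes G quadruplexes, folds of guanine-rich nucleic acid in which layers of paired guanines stack on each other. The comparison asks how each transcript's abundance, relative to the other transcripts, differs when the ligand is present. Nothing in the labels says whether the 3 libraries of a group came from separate cultures, so the p-values rest on a spread between libraries that may be only technical.

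p53 is a transcription factor that is held at a low level by the ubiquitin ligase MDM2 and accumulates when cells are damaged or stressed. It then binds response elements near its target genes, some of which stop the cell cycle, while others restrain growth signalling, adjust metabolism and redox balance, or secrete a stress signal. Several of these genes are also known to be induced by other stress regulators without p53, GDF15 and GADD45A among them.

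Reads counted in genes, recovered from the deposited values, summed to 7371056 to 9386691 per library in the PhenDC3 group. In the DMSO group they summed to 12574952 to 14292987 per library. Values below are normalized read counts, meaning reads divided by the authors' size factor for the library. Fold changes are on the log2(value + 1) scale, PhenDC3 over DMSO, and a gene was called at a limma adjusted p under 0.05 over all genes tested. DMSO replicate 3 stood apart from the other DMSO libraries, with chi-square values per degree of freedom of 6.47 and 6.99 against them, while the other pairs of libraries within a group gave 1.4 to 2.5. Of the mesenchymal markers, all 6 had values, summing to between 28675 and 29253 normalized counts in PhenDC3 and between 44106 and 48061 in DMSO. VIM, FN1, SPARC and CDH2 were called lower and COL1A1 higher, and COL1A2 was too low to be tested. For epithelial markers the sums were 2438 to 2684 in PhenDC3 and 2279 to 2801 in DMSO, and EPCAM and CDH1 had no row in the table. KRT8 was called higher (1.15-fold), a call lost without any 1 of PhenDC3 replicates 1 and 3 and DMSO replicates 1 and 2 (limma adjusted p from 0.085 to 0.208). ELF3 was called higher on 7, 7 and 10 reads in PhenDC3, against 1, 0 and 0 in DMSO, so it passed the filter on low values through the PhenDC3 group alone. Endothelial markers summed to 238 to 322 in PhenDC3 and 227 to 304 in DMSO, nearly all of it EGFL7, and PECAM1 and CDH5 had no row. The immune markers summed to at most 22.3 in any library, and PTPRC and CD3E had no row. CD68 was called higher, but not without PhenDC3 replicate 1 or 2 (limma adjusted p = 0.0718 and 0.069). The part of these markers in the results below was not tested.

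Promoter sequences are shown because p53 binds DNA motifs near its target genes and the ligand binds G quadruplexes. RefSeq promoter windows (GRCh38.p14), reaching 250 bases upstream and 50 bases downstream of an annotated start, were matched by symbol for 6 of the 10 genes, giving 10 windows. PHLDA3, GADD45A, RRM2B and TP53INP1 were not searched. The p53 response element was sought as a pair of adjacent copies of the p53 consensus decamer with up to 3 mismatches, where the C and G of each core had to match. This pattern reads the same on both strands, and the limit of 3 mismatches was set after the sequences had been seen. It occurred in a window of SESN1, FDXR and GDF15, against 1.1% of all 35114 windows. Each of these 3 elements had 3 mismatches, so all of them sat at the limit. The genes were chosen as known p53 targets, and no test against that share was run. The 3 elements follow, 5′ to 3′ on the gene's strand, with the 4 core positions of each decamer in capitals.
SESN1: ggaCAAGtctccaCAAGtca
FDXR: gggCAGGagcgggCTTGccc
GDF15: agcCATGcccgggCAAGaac
The SESN1 element lies on the minus strand at chr6:109009018-109009037, from 49 to 30 bases before the most downstream of its annotated starts. The FDXR element lies on the minus strand at chr17:74872996-74873015, from 21 to 2 bases before the most upstream of its annotated starts. The other FDXR window, at a more downstream start, held no such element. The GDF15 element lies on the plus strand at chr19:18386186-18386205, within the transcript, from 28 to 47 bases after its first base.

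The G quadruplex motif was sought on both strands as 4 runs of at least 3 G with loops of 1 to 7 bases, and was held by 25.0% of all windows. Of the 10 windows of these genes, 3 held it, in BTG2, SESN1 and FDXR, all on the gene's own strand. The motifs are shown with the G runs in capitals.
BTG2: GGGcGGGGGctGGGGtggcGGGGG
SESN1: GGGGctGGGcgaaGGGcGGG
FDXR, distal: GGGGGcGGGGtttGGGGcGGGG
FDXR, proximal: GGGcGGGcccGGGcaggagcGGG
In BTG2 the motif covers bases 168 to 145 before the start (chr1:203305351-203305374, plus strand). The SESN1 motif covers bases 50 to 31 before its most upstream start (chr6:109094877-109094896, minus strand), which is another start than that of the p53 element. FDXR is shown in full because the proximal motif, from 31 to 9 bases before its most upstream start, overlaps its p53 element. The 250 bases upstream of that FDXR start (chr17:74872995-74873244, minus strand) read as follows, with both motifs in capitals.
FDXR upstream: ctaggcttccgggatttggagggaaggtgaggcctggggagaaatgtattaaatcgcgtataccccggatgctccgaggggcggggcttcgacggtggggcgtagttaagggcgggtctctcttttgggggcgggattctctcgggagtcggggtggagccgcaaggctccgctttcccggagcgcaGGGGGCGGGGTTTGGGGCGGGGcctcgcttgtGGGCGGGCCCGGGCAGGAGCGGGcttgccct
A match describes these letters only, and says nothing of binding or of folding in these cells.

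With PhenDC3 the 10 p53 target genes did not move together. GDF15, PHLDA3, TP53INP1 and GADD45A were called higher, and FDXR, SESN1, ZMAT3, TP53I3 and BTG2 were called lower, while RRM2B did not pass. That is 9 of 10 called, in a comparison where 59.6% of the 16482 tested genes were called. Of all tested genes, 29.2% were called higher and 30.4% lower, beside 4 and 5 of these 10. All 10 passed the filter on low values. The values of the groups did not overlap in 9 of them, which held for 64.1% of tested genes. The same 4 rises and 5 falls were called at a limma adjusted p under 0.01 (48.9% of genes called) and by edgeR with TMM (63.0%). They were also called by DESeq2 (39.0% of the 21593 genes with an adjusted p) and in the authors' deposited table (39.0%). DESeq2 was run on reads recovered from that deposited table, so the last 2 are not separate checks. There TP53I3 and BTG2 had authors' adjusted p-values of 0.0207 and 0.0235. The median log2 fold change of the 10 was -0.17, against -0.02 over all tested genes, and their median size without sign was 0.61, against 0.42. GDF15 alone passed 2-fold, 1 of the 10 genes, while 16.3% of tested genes were called and differed 2-fold or more. In RNA from whole cultures, a change in the share of cells that hold a transcript and a change in its amount per cell cannot be told apart.

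**Figure D1:**
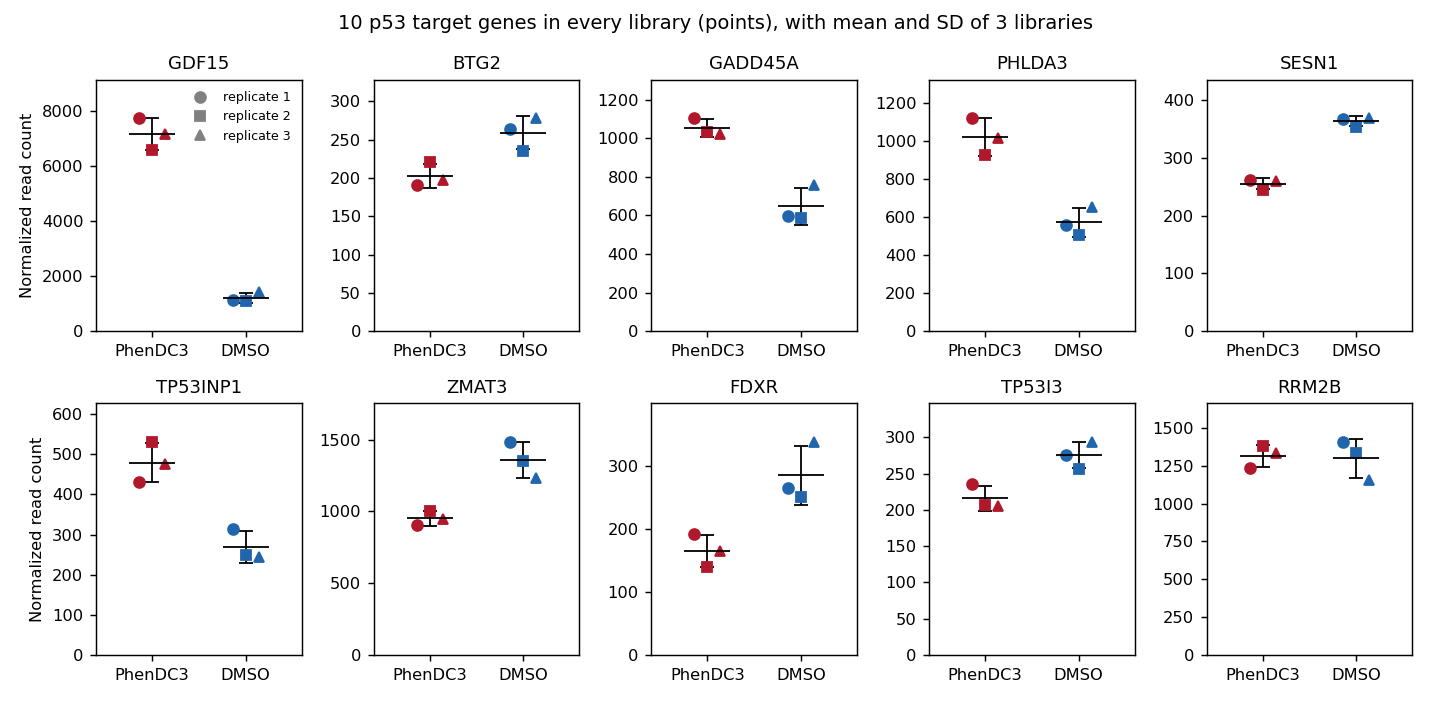
Normalized read counts of the 10 genes, 1 panel a gene, with PhenDC3 on the left of DMSO, 3 libraries as points (shape gives the replicate number), and the mean with its SD as black bars. The genes called higher, GDF15, PHLDA3, TP53INP1 and GADD45A, lie higher in PhenDC3 with no overlap, and RRM2B overlaps between the groups.

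GDF15 encodes a secreted stress cytokine of the TGF-beta superfamily, known for lowering appetite through its receptor in the hindbrain. It had 7745, 6585 and 7179.5 normalized counts in the PhenDC3 libraries, against 1135, 1096 and 1427 in the DMSO libraries. Every PhenDC3 library was far above every DMSO library. GDF15 rose 5.88-fold, averaging 7169.6 ± 580.1 in PhenDC3 and 1219 ± 181 in DMSO (SD, n = 3 each), a limma log2 fold change of 2.56 ± 0.084 (SE, adjusted p = 2.34e-15). It ranked 241 of 16482 tested genes by fold change. GDF15 (ENSG00000130513) is on chromosome 19. The deposited table lists no coordinates, so genes are given by chromosome, and positions only for the RefSeq promoter motifs above.

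Among the genes known to restrain cell division and growth signalling, 3 rose and 2 fell. PHLDA3 (chromosome 1), whose product competes with the kinase AKT for membrane lipids, had 1123, 927 and 1019 normalized counts in PhenDC3, against 559, 508 and 657 in DMSO. It rose 1.78-fold, averaging 1023 ± 97.9 in PhenDC3 and 575 ± 75.8 in DMSO (limma log2 fold change 0.84, SE 0.091, adjusted p = 1.31e-07). A non-coding gene on the same strand, AC096677.2, shares 598 of the 3138 annotated exonic bases of PHLDA3. The sources used here do not give the rule by which the counting divided such reads. That gene averaged 49.89 normalized counts over the 6 libraries, a value that depends on the same rule.

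GADD45A (chromosome 1), a small protein that binds stress kinases and cell cycle proteins, had 1104, 1030.2 and 1022 normalized counts in PhenDC3, against 599, 585 and 756 in DMSO. The PhenDC3 libraries lay close together, and DMSO replicate 3 was the highest of its group. GADD45A rose 1.63-fold, with 1052 ± 45.2 in PhenDC3 and 647 ± 95.3 in DMSO (limma log2 fold change 0.71, SE 0.087, adjusted p = 6.58e-07). TP53INP1 (chromosome 8), a p53 cofactor that also takes part in autophagy, had 432, 531 and 475 normalized counts in PhenDC3, against 314, 248 and 245 in DMSO. Here the highest DMSO library was replicate 1. TP53INP1 rose 1.78-fold, with 479 ± 49.9 in PhenDC3 and 269 ± 38.6 in DMSO (limma log2 fold change 0.84, SE 0.10, adjusted p = 7.7e-07).

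SESN1 (chromosome 6), a sestrin that restrains the growth kinase complex mTORC1 when leucine is scarce, had 262, 244 and 259.8 normalized counts in PhenDC3, against 368, 354 and 369 in DMSO. Its libraries were the tightest of the 10 genes, with coefficients of variation of 3.75% in PhenDC3 and 2.28% in DMSO. SESN1 fell to 0.702 of its DMSO level, with 255 ± 9.58 in PhenDC3 and 364 ± 8.31 in DMSO (limma log2 fold change -0.51, SE 0.086, adjusted p = 3.64e-05). An antisense gene that averaged 2.46 normalized counts shares 363 of its 5121 exonic bases. BTG2 (chromosome 1), an antiproliferative protein that brings the CCR4-NOT deadenylase to mRNAs, had 191, 220.3 and 197 normalized counts in PhenDC3, against 264, 235 and 278 in DMSO. The gap between the groups was narrow, from 220.3 in the highest PhenDC3 library to 235 in the lowest DMSO library. BTG2 fell to 0.782 of its DMSO level, with 203 ± 15.7 in PhenDC3 and 259 ± 21.8 in DMSO (limma log2 fold change -0.35, SE 0.10, adjusted p = 0.00549).

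ZMAT3 (chromosome 3), a zinc finger protein that binds RNA and influences splicing and mRNA stability, fell as well. It had 905, 1006 and 946 normalized counts in PhenDC3, against 1485, 1353 and 1232 in DMSO. ZMAT3 fell to 0.702 of its DMSO level, the same ratio as SESN1, with 953 ± 50.8 in PhenDC3 and 1357 ± 126 in DMSO (limma log2 fold change -0.51, SE 0.075, adjusted p = 7.69e-06).

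Transcripts for enzymes of redox balance and nucleotide supply were lower or did not pass. FDXR (chromosome 17), the mitochondrial ferredoxin reductase that feeds electrons to iron-sulfur cluster and steroid synthesis, had 191, 139.9 and 165 normalized counts in PhenDC3, against 265, 251 and 338 in DMSO. This was the largest fall of the 10 genes and also the widest spread, with coefficients of variation of 15.3% in PhenDC3 and 16.4% in DMSO. FDXR fell to 0.581 of its DMSO level, with 165 ± 25.3 in PhenDC3 and 285 ± 46.6 in DMSO (limma log2 fold change -0.78, SE 0.13, adjusted p = 2.01e-05). Few reads lay behind it, from 94 to 490 per library. TP53I3 (chromosome 2), a quinone oxidoreductase also known as PIG3, had 236, 207 and 205 normalized counts in PhenDC3, against 276, 257 and 294 in DMSO. The groups did not overlap, though 236 in PhenDC3 replicate 1 came near the 257 of DMSO replicate 2. TP53I3 fell to 0.782 of its DMSO level, with 216 ± 17.2 in PhenDC3 and 276 ± 18.1 in DMSO (limma log2 fold change -0.35, SE 0.10, adjusted p = 0.00405).

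RRM2B (chromosome 8), the p53-inducible small subunit of ribonucleotide reductase that supplies deoxynucleotides outside S phase, had 1234, 1380.0 and 1332 normalized counts in PhenDC3, against 1409, 1333 and 1158 in DMSO. The groups overlapped, with a DMSO library above and another below all of the PhenDC3 ones. RRM2B averaged 1315 ± 74.2 in PhenDC3 and 1300.1 ± 129 in DMSO (limma log2 fold change 0.02, SE 0.076, adjusted p = 0.835). Its ratio had a 95% interval of 0.909 to 1.13, which includes both small rises and small falls.

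**Figure D2:**
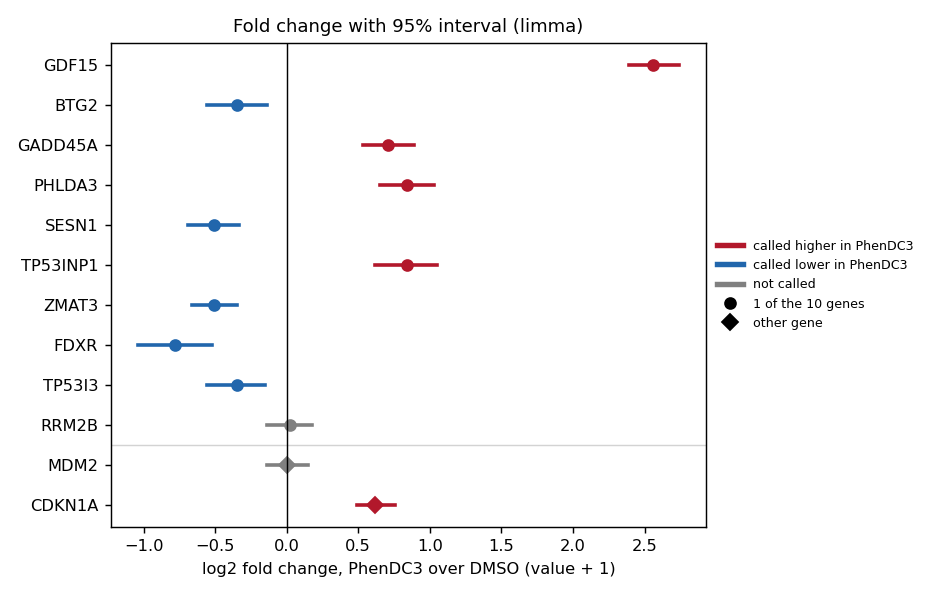
Limma log2 fold changes of PhenDC3 over DMSO (points) with 95% intervals (bars) for the 10 genes, drawn as circles, and for MDM2 and CDKN1A, drawn as diamonds. GDF15 at 2.56 stands to the right of the other genes, FDXR at -0.78 is farthest to the left, and the intervals of RRM2B and MDM2 cross 0.

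DMSO replicate 3 was at an end of its group for each of the 10 genes. The share of all tested genes for which this held was not computed. The margin was small for SESN1 (369 against 368 in replicate 1) and for TP53INP1 (245 against 248 in replicate 2). Of the 10 genes, 7 had their highest DMSO value in replicate 3 and the remaining 3, ZMAT3, RRM2B and TP53INP1, had their lowest there. Without DMSO replicate 3, the same 4 genes were called higher and the same 5 lower. GDF15 then had a log2 fold change of 2.68, PHLDA3 of 0.94, GADD45A of 0.83 and TP53INP1 of 0.77. FDXR had -0.65, ZMAT3 -0.57, SESN1 -0.5, TP53I3 -0.31 and BTG2 -0.3, and RRM2B had -0.06 with a limma adjusted p = 0.409.

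Levels can be compared between genes only per length, here as mean normalized counts per kilobase of exon annotated in GENCODE release 29. On this scale GDF15 was the most abundant, at 3435 ± 278 per kilobase in PhenDC3 and 584 ± 86.9 in DMSO. GADD45A followed, at 509 ± 21.9 in PhenDC3 and 313 ± 46.1 in DMSO. PHLDA3 stood at 326 ± 31.2 in PhenDC3 and 183 ± 24.2 in DMSO, and RRM2B at 237 ± 13.4 in PhenDC3 and 234 ± 23.3 in DMSO. PHLDA3 was therefore above RRM2B in PhenDC3 and below it in DMSO, by more than the SDs in both cases. The other 6 genes lay between 45.9 and 98.8 per kilobase in PhenDC3 and between 47.4 and 141 in DMSO. In PhenDC3 the neighbours ZMAT3 (98.8 ± 5.27) and TP53I3 (93.3 ± 7.43) did not differ beyond their spread, nor did SESN1 (49.8 ± 1.87) and FDXR (45.9 ± 7.03). TP53INP1 was the lowest of the 10 in DMSO, at 47.4 ± 6.8 per kilobase, and reached 84.5 ± 8.79 in PhenDC3, above SESN1 and FDXR. Exon length counts all annotated transcripts of a gene, so a gene with long rarely used exons appears lower than it is.

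Of 9 tested genes that encode regulators of p53, 3 were called higher and 1 lower, beside 29.2% and 30.4% of all tested genes. The other 5 did not pass, and the median log2 fold change was 0.0. The count of falls was 2 without PhenDC3 replicate 2 and 2 without DMSO replicate 3. The count of rises was 2 without PhenDC3 replicate 2 or 3, or DMSO replicate 1 or 2. In these fits TP53RK was no longer called (limma adjusted p from 0.0771 to 0.184, against 0.048 with all libraries). MDM2, the ubiquitin ligase of p53 and itself a p53 target, had 2028, 2306 and 2261 normalized counts in PhenDC3, against 2347, 2191 and 2047 in DMSO. The groups overlapped, and the limma adjusted p was 0.98 with a 95% interval of the ratio from 0.907 to 1.11. MDM4, the inhibitory partner of MDM2, fell to 0.657 of its DMSO level (limma adjusted p = 3.55e-05). HIPK2, a kinase that phosphorylates p53, rose 1.56-fold and RCHY1, another ubiquitin ligase of p53, 1.49-fold (limma adjusted p = 7.63e-06 and 1.32e-05). Without DMSO replicate 3 the limma log2 fold change of HIPK2 was 0.49, against 0.66 with all libraries. RCHY1 shares 547 of its 6565 exonic bases with THAP6 on the opposite strand, a gene that averaged 196.96 normalized counts.

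Other direct p53 targets outside apoptosis and repair also included both rises and falls. Of 28 tested, 9 were called higher and 9 lower, beside 29.2% and 30.4% of all tested genes. Their median log2 fold change was 0.01. With 1 library left out, the rises ran from 7 to 10 and the falls from 6 to 9. MDM2 and PPM1D are on this list and on that of p53 regulators. CDKN1A, the cell cycle inhibitor p21 and the best known p53 target, had 3354, 2946 and 3120.1 normalized counts in PhenDC3, against 2009, 1963 and 2147 in DMSO (limma log2 fold change 0.62, adjusted p = 7.29e-08). PLK3, a polo-like kinase, rose 1.71-fold (limma adjusted p = 8.75e-08), and ASTN2 fell to 0.367 of its DMSO level (limma adjusted p = 6.98e-07). SESN2, the most strongly called of the list, is described with its family below.

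For targets known for apoptosis and repair, most calls were falls. Of 15 tested, 10 were called lower and 2 higher, beside 30.4% and 29.2% of all tested genes. Their median log2 fold change was -0.2. The count of falls dropped to 5 without PhenDC3 replicate 3 and to 5 without DMSO replicate 2. The falls with the smallest adjusted p were in repair and replication genes. DDB2, a sensor of ultraviolet damage, fell to 0.42 of its DMSO level, PCNA, the replication clamp, to 0.479 and POLH, a polymerase that copies past ultraviolet lesions, to 0.613 (limma adjusted p = 2.45e-11, 1.22e-10 and 2.45e-06). BBC3, which encodes the pro-apoptotic protein PUMA, rose 1.71-fold (limma adjusted p = 1.34e-06).

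**Figure D3:**
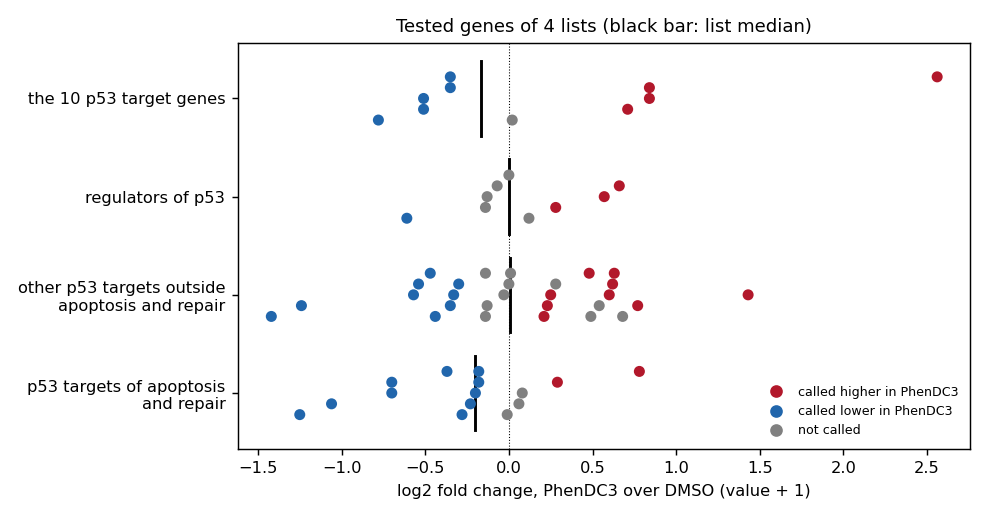
Limma log2 fold changes of PhenDC3 over DMSO for each tested gene (points) in 4 lists, coloured by call, with the list median as a black bar; vertical scatter within a list carries no value. Points lie on both sides of 0 in each list, and the medians run from -0.2 to 0.01.

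Paralogs of the 10 genes share sequence and part of their function. Among 15 tested, 7 were called higher and 6 lower, beside 29.2% and 30.4% of all tested genes. Without DMSO replicate 2 there were 5 rises, with BTG1 and PHLDA2 no longer called (limma adjusted p = 0.102 and 0.0576). SESN2 and BTG1 are also on the list of other p53 targets. In the sestrin family, SESN2, which is known to be induced by ATF4 as well as p53, had 1159.8, 1017 and 1194 normalized counts in PhenDC3, against 399, 416 and 429.6 in DMSO. It rose 2.71-fold, whereas SESN1 fell (limma log2 fold change 1.43, adjusted p = 4.42e-12). SESN3 fell to 0.456 of its DMSO level, with 27.3 ± 2.17 normalized counts in PhenDC3 and 59.9 ± 9.56 in DMSO (limma adjusted p = 4.27e-05). Per kilobase, SESN1 was at 0.154 ± 0.00771 of SESN2 in PhenDC3 and at 0.592 ± 0.0262 in DMSO, a 3.85-fold difference between geometric means.

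In ribonucleotide reductase the balance of the small subunit transcripts differed. RRM2, the subunit of dividing cells, fell to 0.323 of its DMSO level, with 1153 ± 41.3 normalized counts in PhenDC3 and 3572 ± 199.5 in DMSO (limma log2 fold change -1.63, adjusted p = 3.08e-14). Per kilobase, RRM2B was at 1.07, 1.11 and 1.11 of RRM2 in the PhenDC3 libraries, against 0.399, 0.361 and 0.294 in the DMSO libraries. The transcript of the p53-inducible subunit was near the level of that of RRM2 in PhenDC3 and well below it in DMSO. The geometric means of the ratio differed 3.14-fold. RRM1, the large subunit, fell to 0.513 of its DMSO level (limma adjusted p = 2.36e-10). A protein-coding gene annotated on the same strand shares 1077 of the 5323 exonic bases of RRM2.

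GADD45B is the stress-induced relative of GADD45A. It had 1191, 1011 and 1071 normalized counts in PhenDC3, against 269, 292 and 348 in DMSO, a rise of 3.6-fold (limma log2 fold change 1.85, adjusted p = 1.35e-12). Per kilobase the ratio of GADD45A to GADD45B was 0.999 ± 0.0487 in PhenDC3 and 2.21 ± 0.124 in DMSO. TP53INP2, known from autophagy, rose 2.45-fold beside the 1.78-fold of TP53INP1 (limma adjusted p = 2.03e-10). In the PHLDA family, PHLDA1 fell to 0.713 of its DMSO level while PHLDA2 rose 1.26-fold (limma adjusted p = 6.1e-07 and 0.00636). PHLDA3 was at 0.703 ± 0.1 of PHLDA1 per kilobase in PhenDC3 and at 0.28 ± 0.0273 in DMSO.

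BTG2 fell while the related antiproliferative genes BTG1, TOB1 and TOB2 rose, 1.19-fold, 1.36-fold and 1.27-fold (limma adjusted p = 0.0106, 0.000112 and 0.000707). BTG3 fell to 0.824 of its DMSO level (limma adjusted p = 0.00735), and its ratio to BTG2 overlapped between the groups. ZMAT1 fell to 0.217 of its DMSO level, with 5.02 ± 2.55 normalized counts in PhenDC3 and 23.2 ± 1.69 in DMSO (limma adjusted p = 3.9e-05), whereas ZMAT2 and ZMAT5 did not pass (adjusted p = 0.679 and 0.844). CRYZ, a quinone reductase related to TP53I3, fell to 0.568 of its DMSO level (limma adjusted p = 2.21e-07). It shares 257 of its 4085 exonic bases with TYW3 on the opposite strand, a gene that averaged 488.77 normalized counts. Over the 10 ratios of a gene to a paralog, 9 did not overlap between PhenDC3 and DMSO, where 64.1% of single tested genes did not, and the share among other pairs of genes was not computed. Each of the 9 had an exact two-sided permutation p = 0.1, the smallest that 3 against 3 libraries can give, and 0.111 after Benjamini-Hochberg adjustment over the 10.

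**Figure D4:**
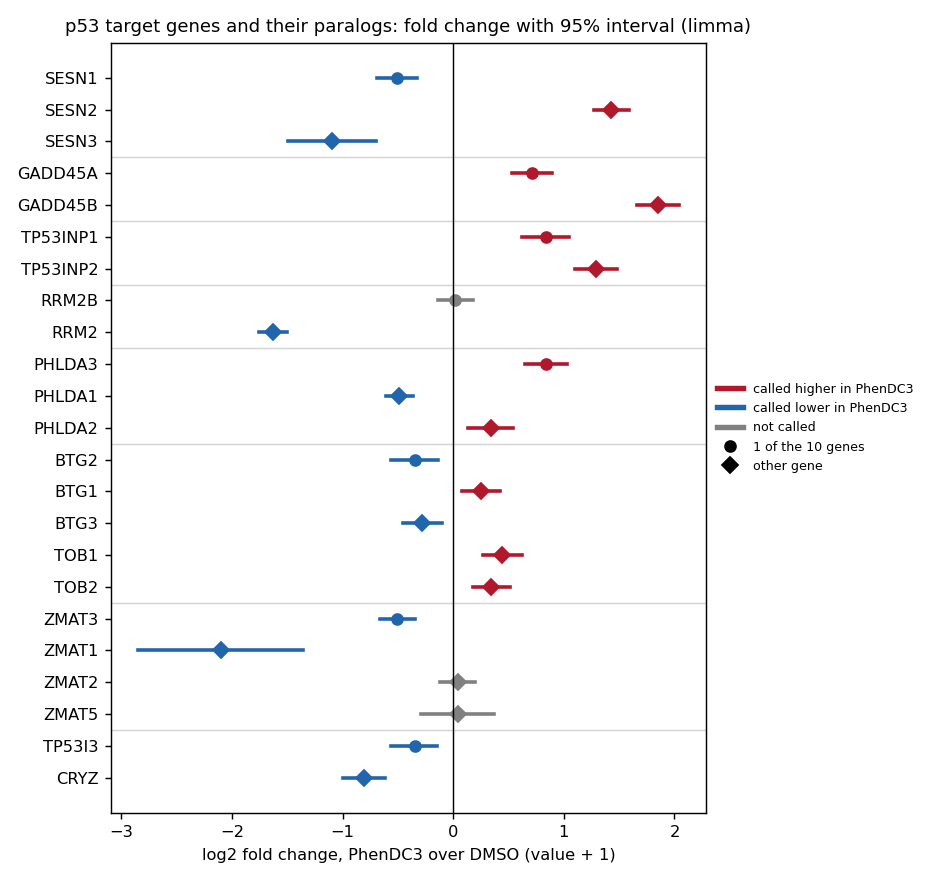
Limma log2 fold changes of PhenDC3 over DMSO (points) with 95% intervals (bars) for 8 of the genes (circles) and their paralogs (diamonds), separated by family with grey lines. SESN1 and SESN2 lie on opposite sides of 0, as do PHLDA3 and PHLDA1, and RRM2 lies at -1.63 with RRM2B near 0.

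Genes whose proteins work directly with the 10 genes' products gave 3 rises and 4 falls among 11 tested. The shares over all tested genes were 29.2% called higher and 30.4% lower. WDR59, a subunit of the GATOR2 complex that sestrins bind, rose 1.94-fold, and MAP3K4, the kinase that GADD45 proteins activate, 1.32-fold (limma adjusted p = 4.69e-10 and 0.000133). SEC13, also of GATOR2, fell to 0.844 of its DMSO level (limma adjusted p = 0.00547). FDX1, the ferredoxin that FDXR reduces, was named after its value was seen, and fell to 0.765 (limma adjusted p = 0.00635).

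Of 8 transcription factors described in the literature as regulators of GDF15, SESN2 or GADD45A other than p53, 6 were called higher. Over all tested genes 29.2% were called higher and 30.4% lower. The list was drawn up with earlier results of these data known, and no test of the list was run. EGR1 rose 7.97-fold, DDIT3 (CHOP) 5.85-fold, CEBPB 4.93-fold and ATF3 4.59-fold (limma adjusted p = 2.48e-15, 1.64e-13, 2.03e-13 and 5.48e-14). DDIT3 shares 355 of its 1307 exonic bases with MARS on the opposite strand, a gene that averaged 3585 normalized counts. The kit is labelled as stranded, but the strand setting of the counting is not stated in what was used here. The single fall, in NFE2L2, was named after its value was seen (limma log2 fold change -0.15, adjusted p = 0.0458). NFE2L2 was not called when any 1 of the PhenDC3 libraries, or DMSO replicate 1 or 2, was left out (limma adjusted p from 0.0715 to 0.172). Without PhenDC3 replicate 1 or 3, or DMSO replicate 1 or 2, the list held 0 falls, and without DMSO replicate 3 it held 2. The part of these factors in the changes of the target genes was not tested.

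**Figure D5:**
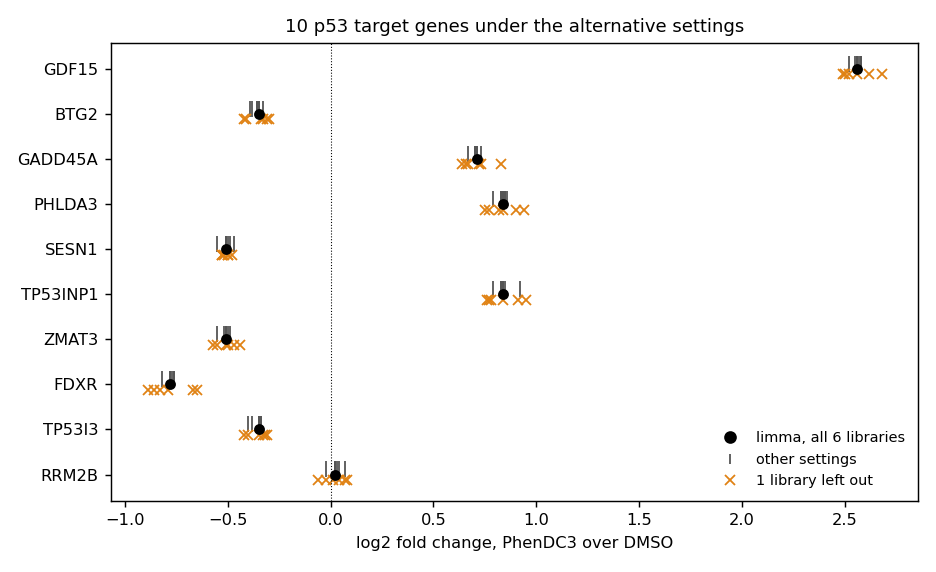
Log2 fold changes of PhenDC3 over DMSO for the 10 genes with all libraries (black points), with 1 library left out (orange crosses) and under the other settings (grey ticks). Apart from RRM2B, whose values run from -0.06 to 0.08, no gene crosses 0.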

How the data were processed

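Poly(A) RNA libraries from 6 samples were analysed. Per the submitters' processing notes, the build named is hg19 and the tools include featureCounts, STAR 2.7, DESeq2 1.18.1 and TopHat2 2.0.11, with no role given. The deposited signal holds gene reads over a size factor, as the values show: 100% came out as whole reads in each library, within a relative tolerance of 1e-06. The authors' deposited log2 fold change and adjusted p-value were used as an alternative. The main test was limma 3.58.1 (R 4.3.3) on log2(value + 1) with a variance trend, for genes with a mean of 5 or more, with Benjamini-Hochberg adjustment over all 16482. edgeR 4.0.16 and DESeq2 1.42.0 were run on recovered reads. RefSeq promoter windows (GRCh38.p14) and GENCODE release 29 served for sequences, exon lengths and overlaps. The 10 genes and the lists were chosen with earlier results of these data known. Named genes are the 10, MDM2, CDKN1A, tested paralogs, called cell type markers and up to 4 called genes of each list by smallest adjusted p. Some genes the rule and the lists would take are not reported here. Intervals cover the spread between libraries. Nothing in the labels says whether same-numbered libraries pair, and the main test did not pair them.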

Additional observations from a re-analysis of the deposited data

How the results depend on the processing

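The 9 called genes kept their direction and stayed called in all 19 alternatives, and RRM2B stayed uncalled, with values on both sides of 0. Among the alternatives, DESeq2 on recovered reads and the authors' deposited table each called 8418 genes and are nearly the same fit. When 1 library was left out the counts stayed at 4 higher and 5 lower, and the largest limma adjusted p among the 9 called genes was 0.0271, for BTG2. The count over all genes ran from 8058 at an adjusted p under 0.01 to 10454 with no filter on low values, and from 8965 to 9564 with 1 library left out. For the other p53 targets outside apoptosis and repair, 9 falls became 6 with no variance trend, DESeq2, the authors' deposited table and an adjusted p under 0.01. Their 9 rises became 7 with no variance trend and at an adjusted p under 0.01. For the targets of apoptosis and repair, 10 falls became 4 with no variance trend, 6 with DESeq2, 6 in the authors' deposited table, 5 at an adjusted p under 0.01, and 5 to 8 with 1 library left out. For the regulators of p53, the single fall became 2 with a mean of 20 or more, with the replicate block and with TMM scaling, and 1 to 2 with 1 library left out. Their 3 rises became 2 with no filter, no variance trend, TMM scaling, DESeq2, the authors' deposited table and an adjusted p under 0.01. With 1 library left out these rises were 2 to 3. For the other regulators of GDF15, SESN2 and GADD45A, the single fall became 0 with no filter, no variance trend, scaling by nuclear reads, edgeR with TMM, DESeq2, thinned reads, the authors' deposited table and an adjusted p under 0.01, 2 with the replicate block, and 0 to 2 with 1 library left out. The cause was not tested, apart from the stricter threshold. The paralog rises became 5 with no variance trend, BTG1 and PHLDA2 being lost (limma adjusted p = 0.0652 and 0.0925). Of 93 other genes, 1602 of 1748 values kept their call, 130 lost it, 16 gained it and none reversed. TMM scaling put the median of all genes at -0.0569, against -0.0168.

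Same-numbered libraries had residual correlations of 0.008, 0.071 and 0.027. Those of different-numbered libraries ran from -0.073 to 0.051, so the numbers give little sign of pairing. With the replicate block 10155 genes were called, and the 4 higher and 5 lower of the 10 genes stayed called. The PhenDC3 libraries were the shallower ones, and reads thinned to 7371056 per library left every call among the 10 in place, with 9212 genes called in all. FDXR had 94 reads in PhenDC3 replicate 2, the lowest read count of the 10 genes in any library, which limits its precision.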
